A study of Mus musculus with 6 samples.

Results

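The A-kinase anchoring proteins described here are 9 genes, Akap1, Akap5, Akap7, Akap8, Akap9, Akap10, Akap11, Akap12 and Akap13. Their members were taken by symbol from the platform annotation of an Illumina BeadChip, where 19038 genes are named, which gave 31 probes among the 45281 on the array. Each probe was named through its Entrez identifier. The family was chosen by its measured difference between overexpressors and controls, led by Akap12, so that difference is given here as a description of the members, without p-values, and any count of members past a threshold in it is a description too.

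Expression was measured in mouse fetal testes, taken at embryonic day 14.5 from animals of mixed B6/CD1 strain. The 3 overexpressors were Amh-cre;RosaNICD/+, in which Cre driven by Amh, a gene of Sertoli cells, switches on the intracellular domain of NOTCH1, the active part of the receptor, from the Rosa26 locus. The 3 controls were RosaNICD/+ littermates that carried the same silent Rosa26 allele without Amh-cre, so effects of the Cre transgene and of NOTCH1 activity cannot be told apart. Each sample was the pair of testes of 1 fetus, dissected free of the mesonephros, and each of 3 dams gave 1 overexpressor and 1 control.

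A-kinase anchoring proteins are scaffolds that hold protein kinase A, the kinase switched on by cyclic AMP, at a chosen place in the cell. Most do so through a short amphipathic helix that grips the paired regulatory subunits of the kinase, and many also carry phosphatases, phosphodiesterases or other kinases. In Sertoli cells cyclic AMP is the second messenger of follicle-stimulating hormone, and in sperm the anchoring proteins AKAP3 and AKAP4 build the fibrous sheath of the tail.

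On each array 19459 to 20285 probes (43.0 to 44.8%) were above background, meaning a detection p under 0.05 against the negative controls of that array. The markers of the fetal testis were present. All 8 Sertoli cell genes and all 5 fetal Leydig cell genes of the marker lists were above background on all 6 arrays, as were 6 of 7 germ cell genes, the exception being Mael, which was so on 0 arrays. Hey1, a repressor that NOTCH induces, rose by 1.27 ± 0.15 (SE) on the log2 scale (adjusted p = 0.00878 in limma), and Notch1 stood at 0.81 ± 0.19 (adjusted p = 0.162).

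Of the 31 member probes, 18 were tested, which required a signal above background on at least 3 of the 6 arrays, and 16 of these were above it on all 6. All 9 genes had at least 1 tested probe. The other 13 probes were above background on 0 arrays (8 probes), or on 1 or 2. Akap13 was tested through ILMN_2552983 alone, which was above background on 1 of 3 overexpressor arrays and 3 of 3 control arrays, so that probe entered through the group in which it was higher. Intensity depends on the probe, so levels are not ranked between genes, and the ratios and sums over probes given below are compared only between the groups.

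Akap12 (Entrez 83397), also called gravin or SSeCKS, encodes a large scaffold at the cell membrane that binds protein kinase A, protein kinase C and the kinase Src. Both of its probes were higher in all 3 overexpressors than in any control. Probe ILMN_2624622 had raw signals of 6306.5, 4877 and 4551.6 in overexpressors 1 to 3, against 2995, 2661.5 and 2564.4 in controls 1 to 3. The lowest overexpressor signal was far above the highest control signal. Overexpressor 1 had the highest signal, on the array with the highest median over detected probes (260.89, against 223.84 and 216.96 in overexpressors 2 and 3). After normalization the log2 values were 12.34, 12.25 and 12.20 in overexpressors 1 to 3. Each signal is the mean of 31 to 44 beads, with a standard error between beads of 126 to 291. Probe ILMN_2437686 had raw signals of 481.52, 468.54 and 479.47 in overexpressors 1 to 3, against 173.84, 170.59 and 171.99 in controls 1 to 3. For this probe the raw signals within a group were nearly identical, and the bead standard error was 5.07 to 21.7 with 43 to 61 beads. Raw signals are not scaled between arrays, which differed in brightness. After normalization the log2 values of this probe spread from 8.32 to 8.78 in overexpressors and from 6.29 to 6.77 in controls. The ratio of overexpressor to control littermate in raw signal was 2.11, 1.83 and 1.77 for ILMN_2624622 in dams 1 to 3, and 2.77, 2.75 and 2.79 for ILMN_2437686.

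**Figure D1:**
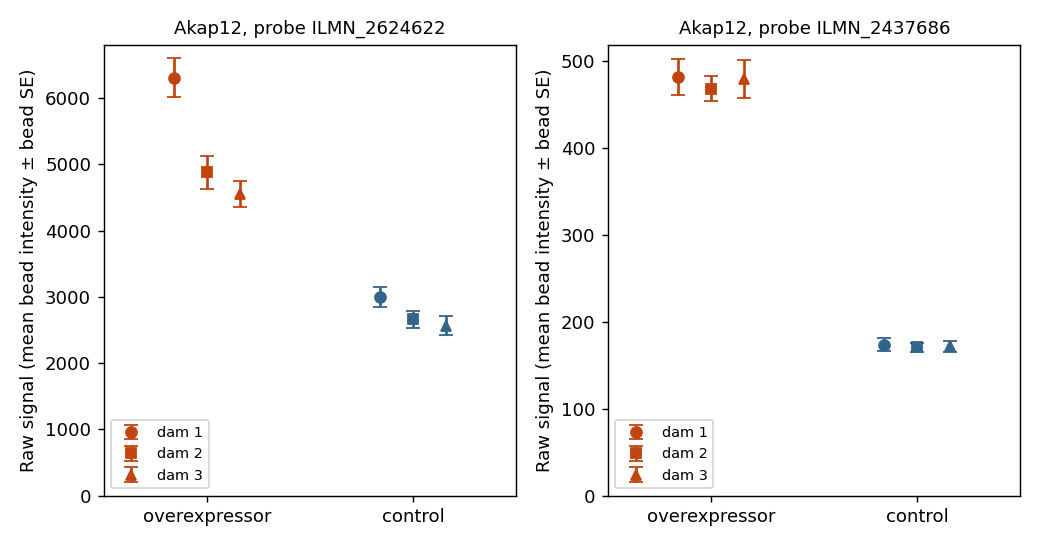
Raw signal of the 2 Akap12 probes on each array, with overexpressors on the left and controls on the right of each panel. Points are arrays, the marker shape gives the dam, and bars are the standard error between beads. The overexpressor signals lie above the control signals in both panels, from 4551.6 against at most 2995 for ILMN_2624622 and from 468.54 against at most 173.84 for ILMN_2437686.

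After background correction and quantile normalization, ILMN_2624622 had a log2 intensity of 12.26 ± 0.07 in overexpressors and 11.43 ± 0.08 in controls (SD, n = 3 each), a difference of 0.83 ± 0.12 (SE). ILMN_2437686 had 8.57 ± 0.23 in overexpressors and 6.51 ± 0.24 in controls (SD, n = 3 each), a difference of 2.06 ± 0.18 (SE). The within-dam differences on the log2 scale were 0.93, 0.88 and 0.68 for the first probe and 2.03, 2.12 and 2.01 for the second. The size for ILMN_2437686 depended on the background correction: the log2 difference was 1.39 without it and 1.38 in the authors' processed values, while that of ILMN_2624622 stayed at 0.81 and 0.84.

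The 2 Akap12 probes differed in the size of their response. The log2 ratio of ILMN_2437686 to ILMN_2624622 on the same array was -4.01, -3.65 and -3.41 in overexpressors 1 to 3, against -5.12, -4.89 and -4.74 in controls 1 to 3. The groups did not overlap, and the mean ratio was higher by 1.22 in overexpressors. Without background correction it was higher by 0.58, and the groups again did not overlap (-3.70 to -3.18 in overexpressors and -4.09 to -3.95 in controls). The annotation gives both probes the same Akap12 transcript, and their positions on it were not analysed here. On the overexpressor arrays the signal of ILMN_2624622 was 11.1 to 12.96% of the highest signal of the array, against 6.37 to 6.45% on control arrays.

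These are values of whole testes, in which more cells of a type and more RNA per cell cannot be told apart. Marker lists of the cell types moved unevenly beside Akap12. Of 8 Sertoli cell genes 1 rose (Cst9), 1 fell (Cbln4) and 6 did not pass, with 3 higher and 5 lower. Amh stood at -1.24 ± 0.38 and Aard at 0.44 ± 0.12 (SE). Their summed intensity after background correction was 34569 to 38814 in overexpressors, against 24541 to 28724 in controls, a sum in which bright probes weigh most and which most members of the list run against. Of 6 tested germ cell genes 0 passed and all 6 were lower, with a summed intensity of 4316 to 7361 in overexpressors and 6317 to 11000 in controls. The falls were uneven: Ddx4, Pou5f1 and Dazl stood at only -0.24, -0.16 and -0.05 with overlapping groups, and Tdrd5 at -1.90. With the dam as a block, a fit that called 0.789% of all probes, 2 of the 6 fell, Nanos2 (log2 difference -2.45, adjusted p = 0.0142 in limma) and Dnd1 (-1.06, adjusted p = 0.0445). Of 4 tested genes of the mesonephros and duct list 1 fell (Ret) and 4 were lower, with sums of 374 to 483 in overexpressors and 916 to 1108 in controls. Ret, Cdh1 and Lhx1 stood at -1.90, -0.93 and -1.38. Pax8 stood at only -0.03 and was above background on 1 overexpressor and 2 control arrays. Pax2, also on this list, was above background on at most 1 array with any probe and was not tested. The testes were dissected free of the mesonephros, and which cells carried these transcripts was not tested. The sums of this list are therefore not read as an amount of duct tissue. The germ cell sums overlapped between the groups, as did those of the remaining lists. The remaining lists held 5 fetal Leydig, 4 endothelial, 6 interstitial and myoid, and 4 macrophage and erythroid tested genes, and 0 passed. The part of these cell types in the Akap12 values was not tested.

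The count of tested member probes past an adjusted p of 0.05 in the limma fit over all probes was 2 of 18, both of Akap12. Over the array 0.568% of the 19889 probes tested were called, and 0.407% were called as higher, but the members were chosen with this contrast known and nothing is read from their count.

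The membrane and calcium channel anchors had small differences. Akap5, the rodent AKAP150, which holds protein kinase A and calcineurin at membranes, had log2 intensities of 7.03, 6.83 and 7.13 in overexpressors 1 to 3, against 7.16, 7.13 and 7.13 in controls 1 to 3. The overexpressors lay just below the controls, by -0.15 ± 0.13 (SE), and in dam 3 by less than 0.01. Akap7, a small membrane anchor that tethers the kinase near calcium channels, had 9.20, 8.92 and 9.26 in overexpressors, against 8.98, 8.91 and 9.36 in controls with probe ILMN_2944413. These values overlapped, with a difference of 0.05 ± 0.17 (SE). Its other 3 probes were above background on 0 or 1 arrays.

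Akap1, which anchors the kinase at the outer membrane of mitochondria, was measured with 2 of its 7 probes. ILMN_3146196 had log2 intensities of 7.73, 7.98 and 7.77 in overexpressors 1 to 3, against 7.69, 7.52 and 7.69 in controls 1 to 3. The overexpressors were higher in all 3 dams but by only 0.03 and 0.08 in dams 1 and 3, and the difference was 0.19 ± 0.14 (SE). The second tested probe, ILMN_1219231, overlapped between the groups at 0.08 ± 0.18 (SE), with dam 3 in the other direction (-0.34). The other 5 Akap1 probes were above background on 0 arrays (4 probes) or 1.

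Akap8, known as AKAP95, works in the nucleus on chromatin condensation. Both of its probes overlapped between the groups, with differences of 0.18 ± 0.17 and 0.15 ± 0.24 (SE). Akap9 encodes a scaffold of the centrosome and Golgi, and mice that lack it have defects in Sertoli cell maturation and spermatogenesis. Its 4 tested probes differed by -0.05 to 0.08 on the log2 scale. The probe ILMN_2627300 had 10.89, 10.92 and 10.75 in overexpressors, against 10.90, 10.89 and 10.91 in controls, so the groups overlapped. The remaining Akap9 probe was above background on 0 arrays. Akap11, or AKAP220, which binds protein phosphatase 1 and the kinase GSK3B, overlapped with both probes, at -0.11 ± 0.15 and 0.10 ± 0.21 (SE).

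Akap10 encodes a dual-specificity anchor with RGS domains that can bind both types of regulatory subunit. It was lower with all 3 tested probes. ILMN_2645981 had log2 intensities of 5.45, 5.75 and 4.92 in overexpressors 1 to 3, against 5.98, 6.09 and 6.10 in controls 1 to 3. The groups did not overlap, overexpressor 3 was the lowest and was not above background, and the difference was -0.68 ± 0.21 (SE). ILMN_1220276 had 7.08, 7.09 and 7.11 in overexpressors, against 7.39, 7.34 and 7.64 in controls. It did not overlap either, at -0.36 ± 0.13 (SE). ILMN_2572969 stood at -0.26 ± 0.19 (SE) with overlapping groups, and dam 1 ran the other way (0.33). In raw signal the overexpressor to control ratios of ILMN_2645981 were 0.930, 0.917 and 0.798 in dams 1 to 3. The fourth Akap10 probe was above background on 0 arrays.

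Akap13, or AKAP-Lbc, joins the anchor to an exchange factor for RhoA. Its tested probe ILMN_2552983 had log2 intensities of 4.53, 4.92 and 5.03 in overexpressors, against 5.09, 5.08 and 5.38 in controls. These did not overlap and differed by -0.36 ± 0.17 (SE). A probe that was not tested, ILMN_2748120, above background on 1 overexpressor array and 0 control arrays, stood at 0.31 in the other direction. Another, ILMN_2767372, above background on 2 control arrays and 0 overexpressor arrays, stood at -0.21.

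Across the tested member probes, 7 of 18 did not overlap between the groups, 2 of them of Akap12 and 2 of Akap10. Of all probes tested 14.6% did not overlap. The members were chosen with this contrast known, so nothing is read from this count or from the median that follows. The 7 also include the Akap13 probe that entered through the group in which it was higher. The median log2 difference of the 18 probes was 0.06, beside 0.00 for all probes tested. Outside Akap12 the differences ran from -0.68 to 0.19.

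**Figure D2:**
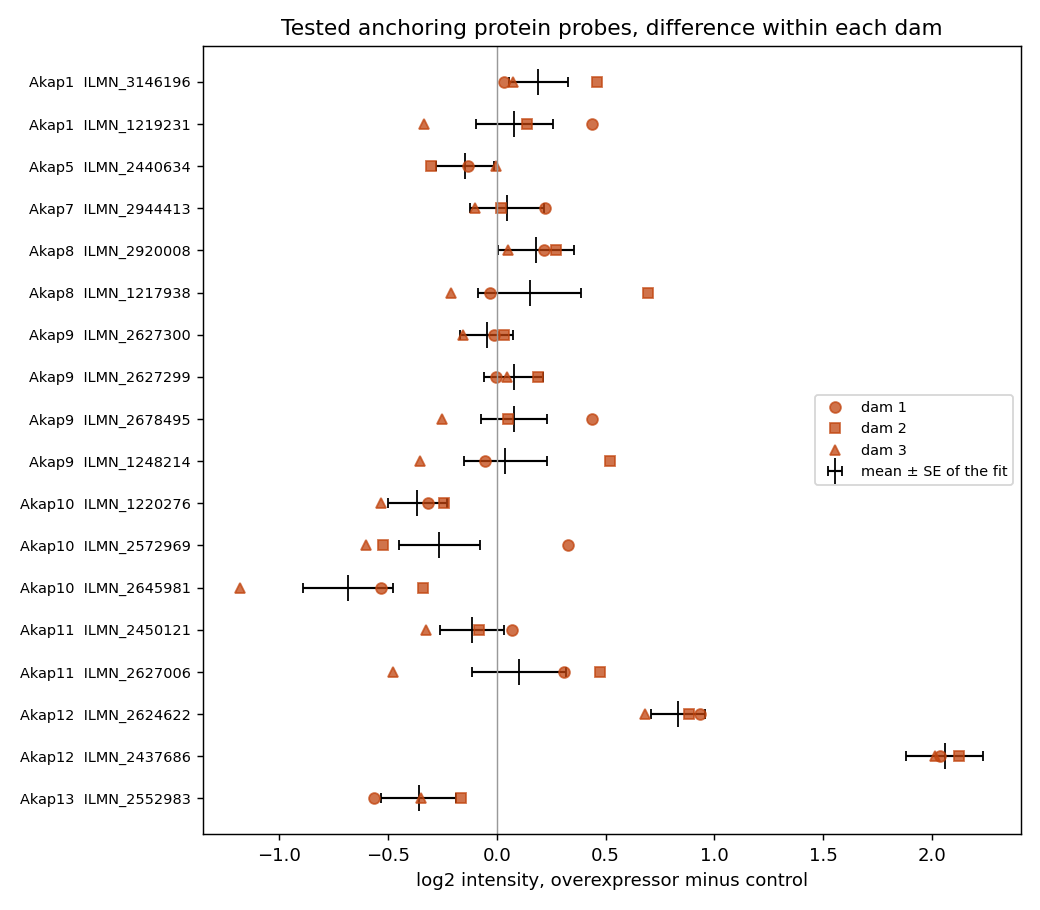
Difference in log2 intensity between overexpressor and control littermate for the 18 tested probes, with the marker shape for the dam and a black tick and bar for the mean ± SE of the fit. That fit held the group alone, without the dam. The 2 Akap12 probes lie at 0.83 and 2.06 with all dams on the same side, and the other probes lie between -0.68 and 0.19.

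**Figure D3:**
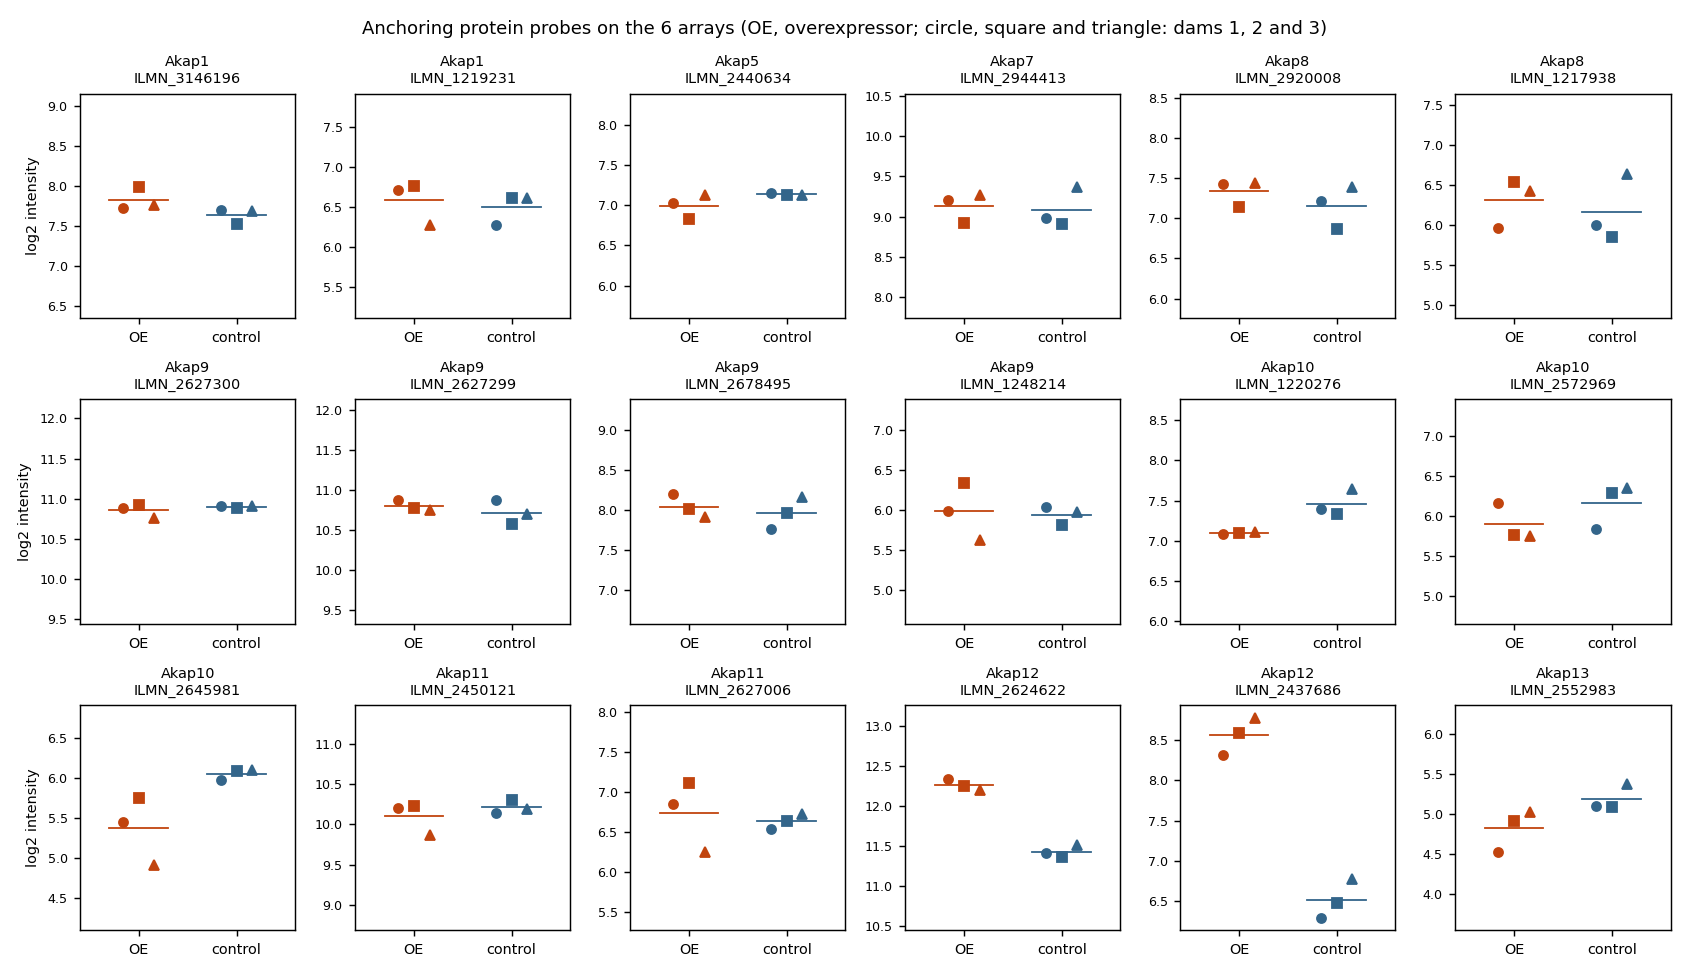
Log2 intensity of each tested member probe on the 6 arrays, 1 panel per probe, with overexpressors (OE) on the left, controls on the right and lines at the group means. Every vertical axis spans the same log2 range around the middle of its own probe. Separation of the groups in the Akap12 panels, for example 8.57 against 6.51 for ILMN_2437686, is wide relative to the scatter of the animals.

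Differences between litters were not used in choosing the genes and could be tested. With group and dam in the model, 0 of the 18 member probes differed between the 3 dams at an adjusted p under 0.05 (limma's F test), and 1 had an unadjusted p under 0.05. Of all probes tested 0.246% passed and 15% had an unadjusted p under 0.05. The 1 probe was ILMN_2437686 of Akap12 (unadjusted p = 0.0352, adjusted p = 0.307), with mean log2 intensities of 7.31, 7.53 and 7.78 in dams 1 to 3. Its raw signals, given above, did not show this order. Akap8 probe ILMN_2920008 came next, at 7.324, 7.002 and 7.422 in dams 1 to 3 (unadjusted p = 0.0545, adjusted p = 0.340). ILMN_2624622 of Akap12 had 11.87, 11.81 and 11.86 (adjusted p = 0.946).

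The genes around the anchors were followed through 6 lists of 97 genes, of which 90 were on the array and 68 were tested with 1 probe each. Of these 68, 1 rose, 0 fell and 67 did not pass, where 0.728% of the 10996 genes tested on the array passed and 0.555% rose. An unadjusted p under 0.05 was reached by 10 of the 68, against 9.46% of all genes tested. The median log2 difference of the 68 was -0.01, beside 0.00 for all genes tested.

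The gene that rose was Src, a membrane tyrosine kinase that the AKAP12 scaffold binds. Its raw signals were 540, 425 and 448 in overexpressors 1 to 3, against 326, 289 and 248 in controls 1 to 3. The groups did not overlap. Its log2 intensity was 8.55 ± 0.12 in overexpressors and 7.70 ± 0.06 in controls (SD, n = 3 each), and it rose by 0.85 ± 0.13 (SE; adjusted p = 0.0344 in limma), higher in 3 of 3 dams. The call was narrow: with the dam as a block the adjusted p was 0.0501, and with 1 array left out it ran from 0.0704 to 0.157. The other 2 Src probes were above background on 0 and 1 arrays and could not be tested.

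Src belongs to a list of 15 tested enzymes that anchoring proteins also hold, in which 1 rose and 14 did not pass (median log2 difference 0.07). Pdpk1, the kinase that primes protein kinase A and its relatives by phosphorylation, had a difference of 0.56 ± 0.13 (SE; adjusted p = 0.164). A second Pdpk1 probe stood at 0.14 ± 0.14 (SE). The protein kinase C genes Prkca, Prkcb and Prkcd stood at -0.10, 0.11 and 0.16, and the calcineurin subunit genes Ppp3ca, Ppp3cb and Ppp3r1 at -0.08, 0.03 and 0.08. Another calcineurin subunit gene, Ppp3cc, stood at 0.32 ± 0.15 (SE; adjusted p = 0.571 in limma), with groups that did not overlap. These last 7 were named after their values were seen.

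Of the kinase itself, 7 subunit and inhibitor genes were tested and 0 passed (median 0.05), with 1 at an unadjusted p under 0.05. The regulatory subunit genes Prkar1a and Prkar2b, whose proteins the anchors grip, stood at -0.06 ± 0.14 and 0.11 ± 0.32 (SE). A further regulatory subunit gene, Prkar1b, stood at -0.40 ± 0.21 (SE), lower in 3 of 3 dams with overlapping groups. The catalytic subunit genes Prkaca and Prkacb stood at 0.05 ± 0.14 and 0.05 ± 0.13 (SE). Prkar2b was lower in both fetuses of dam 2, at 11.40 in the overexpressor and 11.28 in the control, than on the other 4 arrays (12.18 to 12.34). Its SE thus holds spread between litters. Within litters Prkar2b was higher in 3 of 3 dams, with an adjusted p of 0.693 in limma with the dam as a block. These 5 genes were named after their values were seen. The inhibitor genes Pkig and Pkia had the smallest unadjusted p, at 0.37 ± 0.16 and 0.29 ± 0.13 (SE), higher in 3 of 3 dams but with adjusted p-values of 0.510 and 0.554. Prkar2a and Pkib were above background on at most 1 array with any probe.

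Of 8 tested receptor, G protein and adenylyl cyclase genes 0 passed (median -0.08), with 2 at an unadjusted p under 0.05. Fshr, the receptor for follicle-stimulating hormone on Sertoli cells, had log2 intensities of 5.59, 5.42 and 5.70 in overexpressors 1 to 3, against 6.49, 5.91 and 6.37 in controls 1 to 3. The groups did not overlap, and the difference of -0.69 ± 0.18 (SE) had an adjusted p of 0.233, or 0.0962 with the dam as a block. A second Fshr probe, above background on 4 of the 6 arrays, stood at -1.03 ± 0.22 (SE; adjusted p = 0.126). The remaining Fshr probe was above background on 0 arrays and was not tested. Adcy7, one of the cyclases that make cyclic AMP, stood at -0.62 ± 0.21 (SE; adjusted p = 0.397), and its second tested probe at -0.51 ± 0.20 (SE).

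Phosphodiesterases break down cyclic AMP and several are carried by anchoring proteins. Of 10 tested genes 0 passed and 5 had an unadjusted p under 0.05, with 3 higher and 7 lower and a median of -0.09. Over all genes tested 9.46% had such a p, and the list was chosen with earlier results of these data known. Pde1b, a calmodulin-dependent enzyme, had log2 intensities of 6.91, 7.04 and 7.03 in overexpressors 1 to 3, against 6.34, 6.40 and 6.28 in controls 1 to 3. The groups were well apart, at 0.65 ± 0.12 (SE), with an adjusted p of 0.0762 in limma, and a second probe stood at 0.68 ± 0.15 (SE; adjusted p = 0.131). With a stricter filter on dim probes the adjusted p of Pde1b was 0.0461. Pde3b stood at -0.39 ± 0.12 (SE; adjusted p = 0.333) and was above background on 1 of 3 overexpressor arrays and 3 of 3 control arrays. Its probe thus entered through the group in which it was higher, and it is 1 of the 5. Pde4b (-0.54 ± 0.17), Pde10a (-0.72 ± 0.23) and Pde4d (0.34 ± 0.15), the other members with an unadjusted p under 0.05, were named after their values were seen, with adjusted p-values of 0.352, 0.356 and 0.516. Pde10a was above background on 2 of 3 overexpressor arrays.

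Of 13 tested CREB factors and cyclic AMP response genes 0 passed, at an adjusted or an unadjusted p under 0.05 (median -0.09). Crem, a cyclic AMP responsive factor, stood at -0.38 ± 0.18 (SE; adjusted p = 0.559), while 3 other tested probes of Crem stood at 0.02, 0.29 and 0.32. Crtc1, a coactivator of CREB, stood at 0.22 ± 0.15 (SE; adjusted p = 0.703). Of 15 other tested anchoring protein genes 0 passed at either p (median -0.03). Gskip, which binds GSK3B and the kinase, stood at -0.29 ± 0.13 (SE; adjusted p = 0.543), with its other tested probes at 0.18 and -0.12. Myrip stood at 0.63 ± 0.33 (SE; adjusted p = 0.622), with overexpressor 2 the highest array (6.63). The sperm tail genes Akap3 and Akap4 were above background on 0 arrays with all 6 of their probes.

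**Figure D4:**
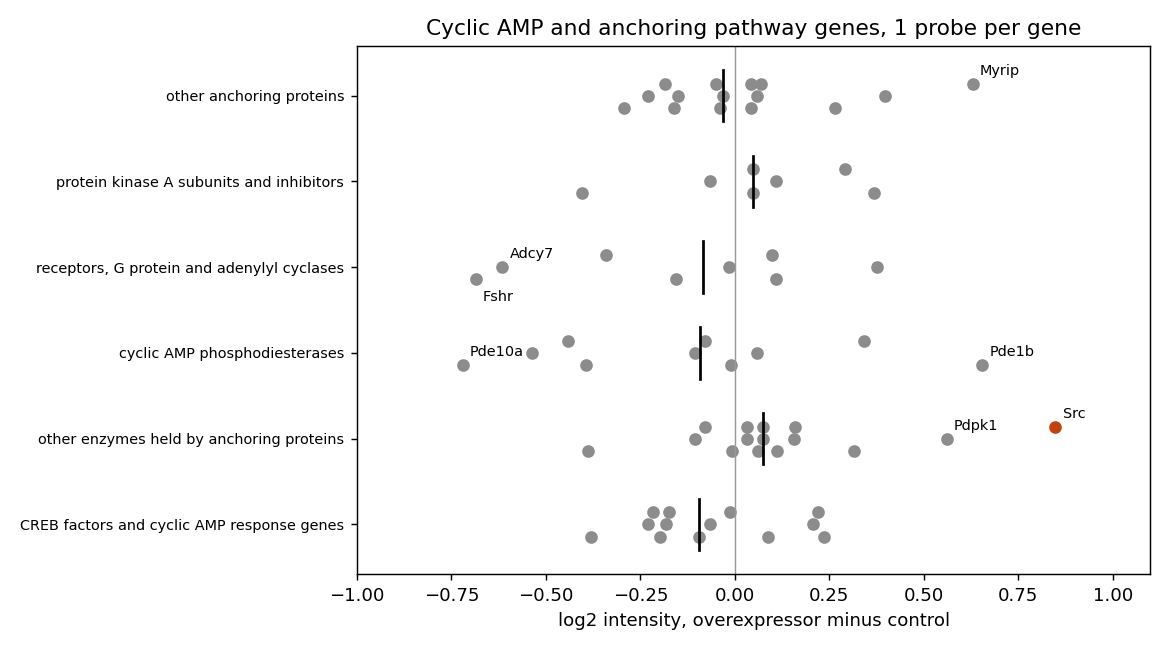
Difference in log2 intensity between overexpressors and controls for the 68 tested pathway genes in 6 lists, with a black bar at the median of each list. Src, at 0.85, is the point in colour and the 1 gene past an adjusted p of 0.05, and the other genes lie between -0.72 and 0.65.

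As a description of the Akap12 pattern, its probe ILMN_2624622 was set against 10687 other tested genes by Pearson's r over the 6 arrays, which share their group and litter. The highest were Dbp, a clock output factor, at 0.998, Thumpd1 at 0.996, Cstdc1 at 0.996, Wfdc10 at 0.996 and Fam78a at 0.995. Dbp had log2 intensities of 9.85, 9.77 and 9.75 in overexpressors 1 to 3, against 8.54, 8.55 and 8.76 in controls 1 to 3, so that both genes separated the groups in the same way. The lowest were Krt42 at -0.995, Gal at -0.994, Mnat1 at -0.991, Pmaip1 at -0.985 and Krt17 at -0.984. Krt42 was above background on 1 overexpressor array and Gal on 2, and both on 3 control arrays. Krt42 thus entered through the controls, in which it was higher. The 2 Akap12 probes had an r of 0.971 with each other. With 6 arrays in 2 groups, such values are reached by many genes that differ between the groups.

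Promoter sequences from RefSeq (GRCm38.p6) run from 250 bases before to 50 after a start site, which can differ from the outer end of the gene. They were found for 8 of the 9 genes, as 12 sequences, the exception being Akap12. They are shown for Akap10, which was lower with all 3 of its tested probes, and for Src, the pathway gene that rose. Capitals mark matches, on either strand, to TGGGAA, the core letters bound by RBPJ, the DNA-binding partner of NOTCH, or to CACGTG and CACGCG, letters that HES and HEY repressors can bind. CACGTG is its own reverse complement, and the others read TTCCCA and CGCGTG on the opposite strand.
Akap10, chr11:61930208-61930507, minus strand: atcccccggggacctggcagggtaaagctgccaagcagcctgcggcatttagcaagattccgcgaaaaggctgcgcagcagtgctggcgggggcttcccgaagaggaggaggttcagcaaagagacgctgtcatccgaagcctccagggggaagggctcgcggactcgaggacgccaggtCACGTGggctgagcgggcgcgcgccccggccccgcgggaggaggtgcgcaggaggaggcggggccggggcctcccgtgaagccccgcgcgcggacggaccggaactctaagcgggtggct
Src, chr2:157424043-157424342, plus strand: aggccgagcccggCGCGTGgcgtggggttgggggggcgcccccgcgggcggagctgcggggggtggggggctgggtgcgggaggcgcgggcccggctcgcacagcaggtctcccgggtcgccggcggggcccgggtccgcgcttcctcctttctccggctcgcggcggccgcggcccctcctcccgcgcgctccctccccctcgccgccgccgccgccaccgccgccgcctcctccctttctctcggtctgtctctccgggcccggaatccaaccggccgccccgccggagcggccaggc
The Akap10 window held CACGTG starting at position -70 from the start site of that window. The Src window held CGCGTG starting at -237, and neither held TGGGAA. Of all 32851 promoter windows 25.6% held TGGGAA, 7.15% CACGTG and 9.27% CACGCG. Among the 12 windows of the anchoring protein genes the counts were 2 (Akap8 and Akap11), 3 (Akap7, Akap10 and Akap11) and 3 (Akap1, Akap5 and Akap8). A match is a string of letters and not a shown binding site.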

How the data were processed

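RNA of 6 testis pairs was amplified with biotin labelling for Illumina BeadChips, per the labels' protocols. GenomeStudio 2010.3 was used, per the submitters' processing notes. The deposited table gives, per the file headers, the mean bead intensity of each probe on a linear scale without normalization, the deposited count of beads, the standard error between beads and a detection p-value. The authors' processed table holds those intensities multiplied by 1 factor per array (0.855 to 1.15), with column medians of 104.95, 110.93 and 113.25 in overexpressors 1 to 3 and 108.14, 112 and 117.52 in controls 1 to 3, on a linear scale without centring. Their own statistical test was not used here.

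Intensities were background-corrected from the detection p-values, quantile-normalized and log2-transformed by neqc (offset 16) in limma 3.58.1 under R 4.3.3. Probes with a detection p under 0.05 on at least 3 arrays entered limma's moderated test (two-sided), adjusted by Benjamini-Hochberg over all 19889. The probe with the highest mean stands for a gene in the lists. Log2 differences are overexpressor minus control. Unless a fit with the dam is named, the model held the group alone, so its SE includes spread between litters. The fit was checked on simulated data. For the group comparison these held independent noise without a litter effect, so the check does not cover the correlation between littermates. Symbols were updated through Entrez identifiers (34807 probes), symbols or synonyms.

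Members, lists and the naming rule were chosen with earlier results of these data known. Named are all member probes, list genes past the threshold, the 2 list genes with the smallest unadjusted p, Notch1, Hey1 and the 5 genes most and least like Akap12. Genes of the marker lists were named outside this rule, after their values were seen.

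Replicate numbers mark the dam in the labels. Deviations from the group means correlated at 0.252, 0.426 and 0.304 between littermates, and at -0.279 to -0.0138 between other pairs. Chip positions are not given in the sources used here. The number of arrays limits the precision.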

Additional observations from a re-analysis of the deposited data

How the results depend on the processing

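Of the 113 probes called over the array, 67 were left with no filter on dim probes, where all 45281 probes are tested, 202 were called with a trended prior variance, and 28 to 90 with 1 array left out. As a description, since the members were chosen on this contrast, the count of member probes past the threshold was 2, both of Akap12, also under no background correction, median scaling, the authors' processed table, both other filters, the trended prior, array weights and the dam as a block, and 1 with any 1 array left out. The count of pathway genes past the threshold, 1, was 2 with the stricter filter (Pde1b and Src), which tests fewer probes, and 0 with the dam as a block and with any 1 array left out. With the dam as a replicate block 157 probes were called over the array, and beside Src the block changed the calls of the germ cell genes Nanos2 and Dnd1, which passed, and of no other list gene. The count of member probes differing between dams was 0 under all 12 alternatives run. Both Akap12 probes and the 12 named pathway genes kept their direction under every alternative run, with Myrip and Pde3b not tested under the stricter filter. The log2 difference ran from 0.79 to 0.91 for ILMN_2624622, from 1.38 to 2.19 for ILMN_2437686 and from 0.63 to 0.90 for Src. Other causes of these shifts were not tested. Probes near background have a difference that background correction sets in part.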
